A study of Homo sapiens with 25 samples.

Results

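The genes described here are NOTCH1 and NOTCH3, receptors of the NOTCH family, and 8 genes known as targets of NOTCH signalling in T-cell leukaemia: HES1, HES4, DTX1, NRARP, CR2, PTCRA, IGF1R and RHOU. They were taken by name, whatever their values. Of the 10, 9 had a row among the 31919 genes of the deposited table, and 8 were among the 18799 genes kept for testing, which needed 10 or more normalized counts in 2 or more libraries. NRARP had no row under its symbol or identifier and is not analysed here, and PTCRA did not reach that level. RNA was sequenced from DND-41 cells, a human line from an acute leukaemia of T-cell precursors known to carry activating mutations of NOTCH1, grown in medium with a graded supply of histidine, an essential amino acid. There were 9 groups with 25 libraries in all. Day 6 had triplicates at 100% (full medium), 50%, 12.5% and 0% histidine and 2 libraries at 25%, and day 9 had triplicates at 100%, 25% and 12.5% and 2 libraries at 50%. No genotype or other agent distinguishes the groups, and all come from 1 cell line, whose clonal state and culture density the labels do not give. The no-histidine library of replicate 1 is titled day 6 but carries a time label of day 9, and the text on the whole series names other days than the sample labels. It was kept with day 6, and the results were computed with and without it.

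NOTCH receptors are cut after ligand binding, first by ADAM proteases and then by gamma-secretase, which frees an intracellular domain. In the nucleus that domain joins the DNA-binding protein RBPJ and a Mastermind coactivator and switches on target genes, many of which encode repressors or regulators of the pathway itself. In T-cell acute lymphoblastic leukaemia, some mutations of NOTCH1 make this release independent of ligand, and the targets include growth and metabolic genes as well as NOTCH3. The table measures transcripts, so cleavage of the receptors was not observed.

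RBPJ recognises a site whose core letters are GTGNGAA, or TTCNCAC on the other strand, and promoters of the HES family are known for a pair of such sites facing each other. The windows of 250 bases before to 50 after each gene's start, from RefSeq on GRCh38.p14, were searched for these letters on both strands. A window was found for 9 of the 10 genes, DTX1 being the one without and RHOU having more than 1. HES1 and HES4 were the 2 of these 9 genes with a match, beside 13.8% of all 35116 windows, a share of windows and not of genes. Each held GTGGGAA followed by TTCACAC with 23 bases between the first letters of the matches. A forward match followed by a reverse match within 40 bases, a limit chosen after the sequences were seen, occurred in 34 windows (0.0968%). The windows of HES1 (chr3:194135898-194136197, plus strand), HES4 (chr1:1000048-1000347, minus strand) and CR2 (chr1:207454078-207454377, plus strand) are printed 5′ to 3′ with the matches in capitals, the first 2 because they share the paired letters and CR2 because it and HES4 had the largest changes without histidine of the 8 genes. In HES1 the matches began 85 and 62 bases before the start and in HES4 77 and 54 bases before it.
HES1: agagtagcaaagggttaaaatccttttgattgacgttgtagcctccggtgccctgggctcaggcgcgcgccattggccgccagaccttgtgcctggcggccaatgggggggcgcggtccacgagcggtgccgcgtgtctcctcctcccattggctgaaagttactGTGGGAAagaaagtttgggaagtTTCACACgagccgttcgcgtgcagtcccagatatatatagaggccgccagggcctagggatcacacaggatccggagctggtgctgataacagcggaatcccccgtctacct
HES4: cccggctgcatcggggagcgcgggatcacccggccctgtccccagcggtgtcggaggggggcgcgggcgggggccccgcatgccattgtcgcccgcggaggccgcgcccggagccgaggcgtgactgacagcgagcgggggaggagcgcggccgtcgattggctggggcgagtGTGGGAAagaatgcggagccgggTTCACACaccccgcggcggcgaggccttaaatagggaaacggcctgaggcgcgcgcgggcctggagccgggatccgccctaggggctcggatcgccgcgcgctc
CR2: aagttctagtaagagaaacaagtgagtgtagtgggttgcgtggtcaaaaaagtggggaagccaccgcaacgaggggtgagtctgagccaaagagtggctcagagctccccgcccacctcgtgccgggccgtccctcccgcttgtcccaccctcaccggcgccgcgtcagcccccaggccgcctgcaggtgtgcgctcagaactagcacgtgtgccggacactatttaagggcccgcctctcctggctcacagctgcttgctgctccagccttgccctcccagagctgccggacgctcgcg
A match of letters is a description of the window and was not tested as a binding site, and the CR2 window holds none.

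Values are DESeq2 normalized counts, counts per gene scaled between libraries, so they compare a gene between libraries but not 1 gene with another. The values do not show whether the scaling was 1 factor per library. The normalized counts of a library added up to between 13.6 M and 16.1 M. On day 6 the totals were 13.6 M to 15.0 M at 0% and 12.5% and 15.3 M to 15.6 M at 100%. On that day the 12.5% libraries held 15594 to 16263 genes with at least 10 normalized counts, against 14834 to 15572 at 100%. The part of these differences in the results was not tested. Changes are differences of log2(normalized count + 1) from a limma fit over all 18799 genes and all 9 groups, two-sided, with p-values Benjamini-Hochberg adjusted over all genes, and a gene is called where the adjusted p is under 0.05. This scale understates changes of low genes such as HES4. The labels do not state that replicates were separate cultures, so the p-values refer to the spread between the libraries sequenced, part or all of which may be technical. All 11 T-lineage markers searched had a mean of at least 10 in every group, and the 6 myeloid markers summed to 12.4 to 38.0 in the no-histidine libraries and to at most 12.3 in the others, a difference whose part in the results was not tested. In 6 libraries the keratins KRT8, KRT18 and KRT19, markers of epithelial cells, summed to over 100 (119 to 1406): replicates 1 and 2 at 100% and at 50% on day 6, and replicates 1 and 3 at 25% on day 9. Without these 6, 1 library remains in each of those groups. The calls that end without them are named below beside each of the 8 genes.

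Without histidine 5 of the 8 tested genes fell on day 6: the receptor NOTCH3, the repressor HES4, the ubiquitin ligase DTX1, the complement receptor CR2 and the GTPase RHOU. None of the 8 rose, and NOTCH1, HES1 and IGF1R were not called. The 12.5% comparison of day 6 called HES1 and RHOU lower and IGF1R, the receptor of insulin-like growth factor 1, higher. At 25% CR2 rose on both days, and NOTCH1 fell on day 9. At 12.5% on day 9 IGF1R rose, and at 50% none of the 8 was called on either day.

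**Figure D1:**
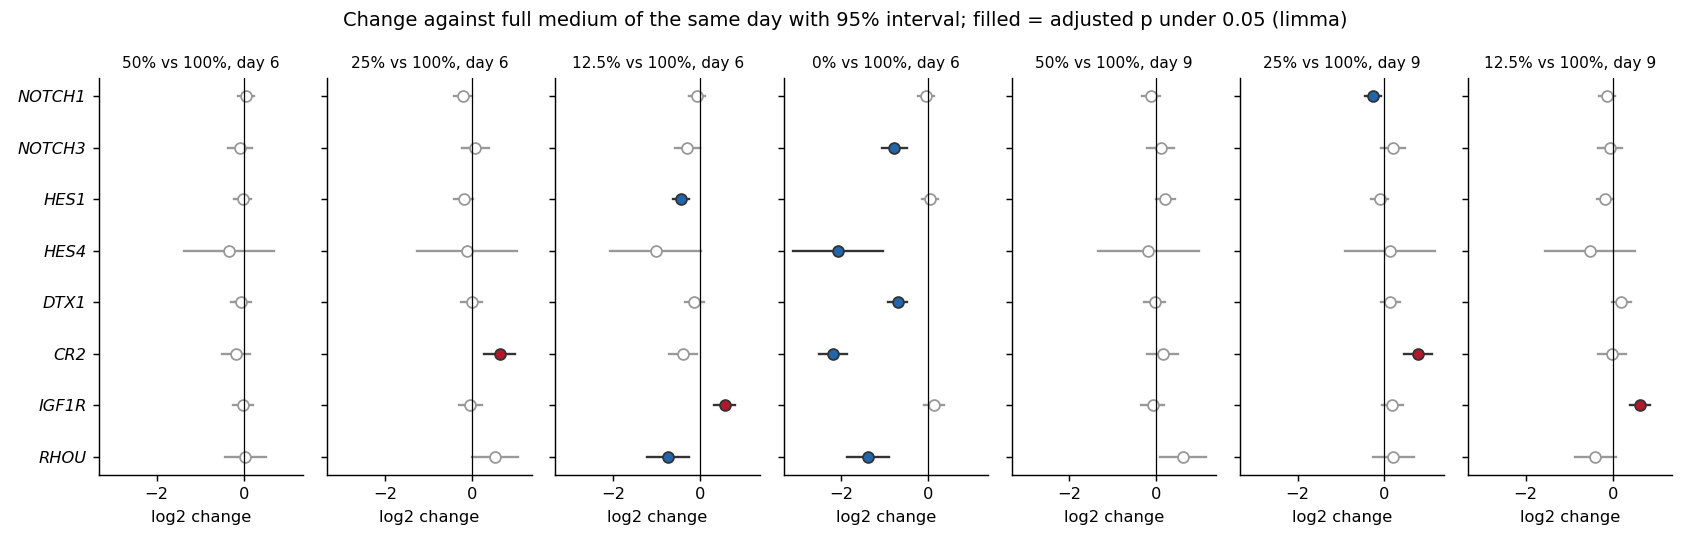
Log2 change of the 8 genes (rows) against full medium of the same day in 7 comparisons (panels), with the 95% interval as a bar and filled points for an adjusted p under 0.05. Without histidine CR2 lay at -2.18 and HES4 at -2.07, while NOTCH1, HES1 and IGF1R lay between -0.06 and 0.14.

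These counts stand beside the share of all genes called. Without histidine on day 6, 29.8% of genes were called, 13.3% higher and 16.5% lower, against 0 higher and 5 lower of the 8. The median log2 change of the 8 was -0.74, beside 0.03 over all genes tested. For 12.5% on day 6, 27% of genes were called (11.7% higher, 15.3% lower), against 1 higher and 2 lower of the 8, with medians of -0.34 and 0.04. Upper-quartile scaling moved that last median to 0.12 and the called genes there from 2196 higher and 2876 lower to 2851 and 2384, and changed no call of the 8. The same scaling turned the balance over all genes at 0% on day 6 from 2503 higher and 3108 lower to 3157 and 2786, and quantile normalization turned it to 3047 and 2942. At 25% on day 6 the share was 13.7% (6.79% higher, 6.92% lower), against 1 higher and 0 lower. On day 9, 20.8% of genes were called at 12.5% (9.35% higher, 11.5% lower), against 1 higher and 0 lower of the 8, and upper-quartile scaling turned 1758 higher and 2158 lower to 2163 and 1940. At 25% on day 9 the share was 18.2% (9.4% higher, 8.76% lower), against 1 of the 8 in each direction. At 50%, 0% of genes were called on day 6 and 0.00532% on day 9, while 695 and 906 genes had an unadjusted p under 0.05. The genes were not drawn at random and the comparisons of a day share the same 3 full-medium libraries. Beside these results, a small ribosomal RNA without a poly(A) tail (5_8S_rRNA in the table) had normalized counts of 74.8 to 88.2 at 12.5% on day 6 and of 153 to 1181 at 100%. At 0% on day 6 it had 120 to 242, overlapping with 100%. RN7SK, another RNA without a poly(A) tail, had 91.1 to 135 at 12.5% on day 6 and 0 to 1100 at 100%, which overlapped. The part of either RNA in these comparisons was not tested. Fewer cells of a type and less RNA per cell cannot be told apart in these bulk samples.

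**Figure D2:**
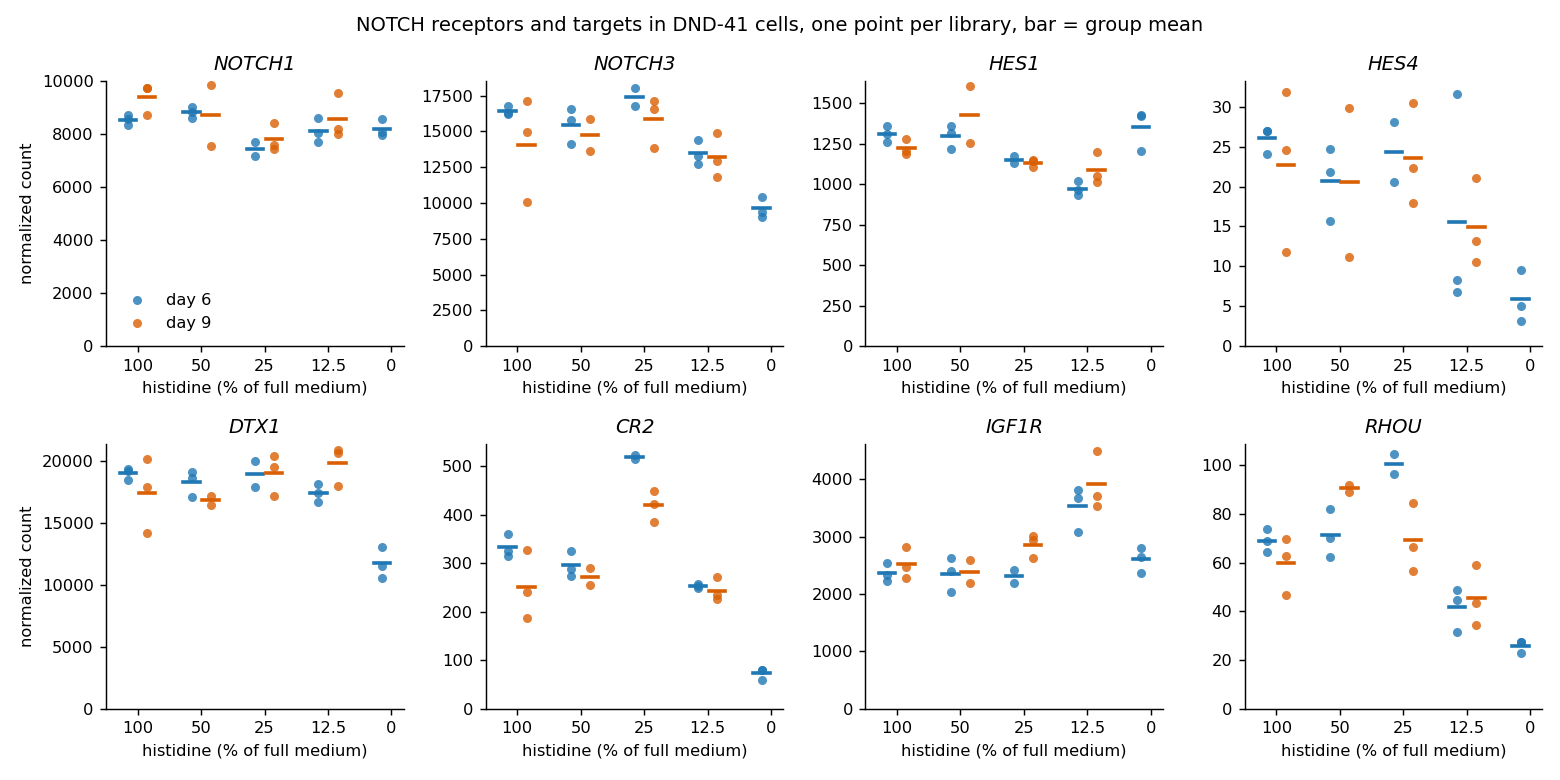
Normalized count of each of the 8 genes (panels, linear axes from 0) at each histidine level, with 1 point per library, a bar at the group mean, and days 6 and 9 in blue and orange. CR2 is highest at 25% on both days and lowest at 0%, while IGF1R is highest at 12.5% on both days.

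NOTCH1 (chromosome 9, 136494433 to 136545786 of GRCh38), the receptor mutated in this leukaemia, varied little. On day 6 its normalized counts were 8718, 8589.6 and 8328 at 100% and 7983, 8555 and 8085 at 0%. The 2 groups overlapped, and the log2 change was -0.06 (95% interval -0.24 to 0.13, adjusted p = 0.678). At 50% the mean was 8829 ± 201, at 25% 7446 ± 370.3 and at 12.5% 8118 ± 448, with n = 3, 2 and 3. The order of the day 6 means from high to low was 50%, 100%, 0%, 12.5% and 25%, and no level was called against 100%. On day 9 the values were 9726, 8718 and 9751 at 100% and 7453, 8414 and 7602 at 25%. Every 25% library lay under every full-medium library, and NOTCH1 fell (log2 change -0.26 ± 0.09 SE, adjusted p = 0.0412). That call ended with the filter on low values removed (adjusted p = 0.065), with quantile normalization (0.153), with keratin as a covariate (0.178) and without the 6 keratin-high libraries (0.63), and it also ended without replicate 1 or 3 of either group. The 12.5% libraries of day 9 held 8008, 9539 and 8213 and those at 50% 7556 and 9872, both overlapping with 100%. The annotation places an antisense gene on the opposite strand of NOTCH1, and since the strand setting of the counting is not given, reads of the pair cannot be told apart.

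NOTCH3 (chromosome 19, 15159038 to 15200981), a receptor that is itself a target of NOTCH1, fell without histidine. On day 6 its normalized counts were 16768, 16256 and 16198 at 100%, 12733, 14409 and 13256 at 12.5% and 9015, 10434 and 9403 at 0%. All 3 no-histidine libraries lay under all others of day 6. The mean went from 16407 ± 314 (SD, n = 3) to 9617 ± 733 (SD, n = 3) (log2 change -0.77 ± 0.14 SE, adjusted p = 0.000107). Without the library with 2 day labels the change was -0.73 (adjusted p = 0.000935). The 12.5% libraries also lay under the full-medium ones, but the change was not called (log2 change -0.29 ± 0.14 SE, adjusted p = 0.127). It was called in a fit on those 2 groups alone (adjusted p = 0.0331). Directly compared, 0% was lower than 12.5% (log2 change -0.49 ± 0.14 SE, adjusted p = 0.0167), a call that ended without replicate 2 at 12.5% (adjusted p = 0.08) or replicate 3 at 0% (0.0599). At 50% the values were 16550.5, 14111 and 15772 and at 25% 18071 and 16789, and neither level differed from 100% beyond the threshold. The order of the day 6 means was therefore 25%, 100%, 50%, 12.5% and 0%, and only 0% was called against 100%.

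On day 9 the 100% libraries of NOTCH3 had 17159.6, 10058 and 14972, with replicate 2 far under the others. At 50% the values were 13667 and 15900.2, at 25% 17100.2, 16598 and 13814 and at 12.5% 12936, 14873 and 11810.1. Every level overlapped with full medium. The log2 change at 12.5% was -0.06 (95% interval -0.34 to 0.22), and without replicate 2 of full medium it was -0.29 (adjusted p = 0.0919). That library was the lowest of its group for 7 of the 8 genes, all but HES1, so it bears on every day 9 comparison with full medium.

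HES1 (chromosome 3, 194136145 to 194138732), a transcriptional repressor and one of the best known NOTCH targets, was lowest at 12.5% on day 6 and was not called without histidine. The normalized counts were 1262, 1360.2 and 1309 at 100%, 930.4, 1021 and 961 at 12.5% and 1206, 1422 and 1426 at 0%. The 12.5% libraries lay under all others of day 6, and the 0% libraries overlapped with full medium. HES1 fell at 12.5% (log2 change -0.43 ± 0.09 SE, adjusted p = 0.0011), and the change at 0% was 0.04 (95% interval -0.15 to 0.23, adjusted p = 0.788). Compared directly, 0% was higher than 12.5% (log2 change 0.47 ± 0.09 SE, adjusted p = 0.000923), and the fall at 12.5% was not called without the keratin-high libraries, where its size stayed at -0.43 (adjusted p = 0.0618). At 50% the values were 1313, 1355 and 1217 and at 25% 1172 and 1128, neither of them called. On day 9 HES1 had 1185, 1205 and 1280.0 at 100%, 1602 and 1250.2 at 50%, 1143, 1104 and 1149 at 25% and 1049, 1012 and 1197 at 12.5%. The change at 12.5% on day 9 was -0.17 (adjusted p = 0.198), and its difference from the day 6 effect, 0.26 on the log2 scale, did not pass (adjusted p = 0.511). The difference between the neighbouring 25% and 50% levels of day 9 (log2 change -0.32 ± 0.10 SE, adjusted p = 0.0381) was no longer called without any single one of these 5 libraries other than replicate 2 at 50%, with no filter, in a fit of those groups or without the keratin-high libraries.

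HES4 (chromosome 1, 998962 to 1000172), a related repressor, was low throughout, with at least 10 normalized counts in 20 of 25 libraries. On day 6 it had 27.0, 27.0 and 24.1 at 100%, 24.7, 21.8 and 15.6 at 50% and 28.1 and 20.6 at 25%. At 12.5% the values were 6.80, 8.29 and 31.6, and at 0% 5.01, 9.57 and 3.18. The 0% libraries lay under every library at 100%, 50% and 25%, whereas at 12.5% replicate 3 stood above all full-medium libraries and the other two under them. HES4 fell without histidine (log2 change -2.07 ± 0.50 SE, adjusted p = 0.00269). That call was not kept without the keratin-high libraries (log2 change -1.97, adjusted p = 0.118). The change at 12.5% was not called (log2 change -1.02 ± 0.50 SE, adjusted p = 0.142), though without replicate 3 it was -1.67 (adjusted p = 0.0134). The result at 12.5% thus depended on replicate 3. With all libraries kept, it was called with library weights (log2 change -1.32, adjusted p = 0.0152). The day 9 values ranged from 10.6 to 31.8, overlapped between all levels and full medium, and gave no call. Of HES1 and HES4, whose windows share the paired letters, HES1 had its lowest day 6 mean at 12.5% and HES4 at 0%. For HES4 the 0% and 12.5% libraries overlapped and their difference was not called (log2 change -1.05 ± 0.50 SE, adjusted p = 0.172), and without replicate 3 at 12.5% it was -0.41.

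DTX1 (chromosome 12, 113056709 to 113098028), an E3 ubiquitin ligase that regulates NOTCH receptors, fell without histidine alone. On day 6 the normalized counts were 18491, 19356 and 19195 at 100%, 16677, 18143 and 17422 at 12.5% and 10588, 13075 and 11538 at 0%. The 0% libraries lay far under the rest and the 12.5% libraries just under full medium. The mean fell from 19014 ± 459.8 (SD, n = 3) to 11734 ± 1255 (SD, n = 3) (log2 change -0.70 ± 0.11 SE, adjusted p = 1.78e-05), a call that every alternative run kept, and 0% was also lower than 12.5% (log2 change -0.57 ± 0.11 SE, adjusted p = 0.000589). At 12.5% the change was -0.13 (adjusted p = 0.417). At 50% the values were 19119, 17076 and 18618 and at 25% 20031 and 17908, overlapping with 100%. On day 9 DTX1 had 20166, 14178 and 17940.2 at 100% and 20614, 20879.5 and 18022 at 12.5%, with 2 of the 12.5% libraries above all full-medium ones. That change was not called (log2 change 0.20 ± 0.11 SE, adjusted p = 0.205). The values at 25% on day 9 were 20370.2, 19491 and 17152 and at 50% 16487 and 17186.

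CR2 (chromosome 1, 207454230 to 207489895), the complement receptor CD21, moved in both directions along the dose. On day 6 its normalized counts were 326, 360.0 and 314 at 100%, 326, 274 and 289 at 50% and 523 and 515 at 25%. They were 253, 257 and 248 at 12.5% and 60.2, 80.4 and 79.6 at 0%. The 25% libraries stood above all others of the day, the 12.5% libraries under all of 100% and 50%, and the 0% libraries under everything else. Without histidine CR2 fell from 333 ± 23.8 (SD, n = 3) to 73.4 ± 11.5 (SD, n = 3) (log2 change -2.18 ± 0.15 SE, adjusted p = 1.72e-10), and 0% was lower than 12.5% (log2 change -1.78 ± 0.15 SE, adjusted p = 1.92e-08). Every alternative run kept both calls. At 25% it rose (log2 change 0.64 ± 0.17 SE, adjusted p = 0.0143). The rise was not called without the keratin-high libraries (log2 change 0.72, adjusted p = 0.139) or without either 25% library (adjusted p = 0.0989 and 0.09), where the remaining one is assumed to vary like the other groups. At 12.5% the change was -0.40 (adjusted p = 0.0611), under the threshold in a fit of those 2 groups (adjusted p = 0.0297), with library weights (0.0202) and with a minimum of 50 (0.0453).

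The rise of CR2 at 25% was present on day 9 too. The values were 328, 187 and 240.0 at 100%, 290.4 and 254 at 50%, 422, 385 and 449 at 25% and 235, 270.5 and 226 at 12.5%. The 3 libraries at 25% lay above every other library of day 9. CR2 rose from 252 ± 71.1 (SD, n = 3) to 419 ± 32.1 (SD, n = 3) (log2 change 0.77 ± 0.15 SE, adjusted p = 0.00096), a call that ended without the keratin-high libraries (log2 change 0.65, adjusted p = 0.14). Without replicate 2 of full medium it was 0.57 (adjusted p = 0.0115). The difference between days in the 25% effect was 0.13 with a 95% interval of -0.35 to 0.61.

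Neighbouring levels were compared after the values had been seen. For CR2 on day 6, 25% was higher than 50% (log2 change 0.81 ± 0.17 SE, adjusted p = 0.00227) and 12.5% lower than 25% (log2 change -1.04 ± 0.17 SE, adjusted p = 0.000285). On day 9 the differences were 0.62 (adjusted p = 0.017) and -0.78 (adjusted p = 0.00251). Of all genes 14% were called between 25% and 50% and 17.8% between 12.5% and 25% on day 6, and 13.8% and 6.82% on day 9. Without the keratin-high libraries only the difference between 12.5% and 25% on day 6 was still called for CR2. The day 9 difference between 25% and 50% also ended with the keratin covariate (adjusted p = 0.0536), without replicate 3 at 25% (0.0579) and without either 50% library (0.0505 and 0.143). CR2 is also a marker of B cells. The B-lineage markers in the table summed to between 15269.8 and 16901 at 100% on day 6, to between 19331 and 21275 at 25% and to between 9674 and 13269 at 0%. At 50% and 12.5% of that day the sums were 12314 to 15345 and 11102 to 16935. On day 9 they were 14625 to 18131 at 100%, 17318 to 19793 at 50%, 18984 to 22795 at 25% and 9716 to 11511 at 12.5%. The day 9 mean of CR2 was 244 at 12.5% and 252 at 100%. CD79A made up nearly all of that sum, with 9400 to 22251 over the libraries, while PAX5 reached at most 12.1 and was at 0 in some. The part of such cells in the CR2 result was not tested.

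PTCRA (chromosome 6, 42915989 to 42925835), the alpha chain of the pre-T-cell receptor, was barely detected. Its normalized counts ran from 0 to 8.14 over the 25 libraries with a median of 2.33, and it was listed at 0 in 4. No library reached 10, so it took part in no test. With the filter on low values removed its lowest adjusted p against full medium was 0.2. A difference in PTCRA was not detectable at this level.

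IGF1R (chromosome 15, 98648539 to 98964530), a receptor tyrosine kinase for insulin-like growth factors, rose at 12.5% on both days. On day 6 the normalized counts were 2535, 2335 and 2230.0 at 100%, 3824, 3678 and 3088 at 12.5% and 2801, 2655 and 2361 at 0%. On day 9 they were 2824, 2279 and 2475 at 100% and 3531, 4499 and 3705 at 12.5%. The 6 libraries at 12.5% were the highest 6 of all 25, and the 0% libraries overlapped with full medium. IGF1R rose at 12.5% from 2367 ± 155 (SD, n = 3) to 3529.7 ± 389.7 (SD, n = 3) on day 6 (log2 change 0.57 ± 0.11 SE, adjusted p = 0.000638) and from 2526 ± 276 (SD, n = 3) to 3912 ± 516 (SD, n = 3) on day 9 (log2 change 0.63 ± 0.11 SE, adjusted p = 0.000334). Every alternative run kept both calls. At 0% the change against full medium was 0.14 (95% interval -0.10 to 0.37), and 0% was lower than 12.5% (log2 change -0.44 ± 0.11 SE, adjusted p = 0.0112). The latter call ended in a fit of those 2 groups (adjusted p = 0.0635) and without replicate 1 or 2 at 12.5% or replicate 3 at 0% (adjusted p = 0.0611, 0.0544 and 0.0746). The other levels held 2409.7, 2034 and 2626 at 50% and 2415 and 2201 at 25% on day 6. On day 9 they held 2189.6 and 2590.2 at 50% and 3014, 2946 and 2635 at 25%. None of these was called. The neighbouring 12.5% and 25% levels differed on day 6 (log2 change 0.61 ± 0.13 SE, adjusted p = 0.00214) and on day 9 (log2 change 0.44 ± 0.11 SE, adjusted p = 0.0192), the second not in a fit of the compared groups, with the keratin covariate, without the keratin-high libraries, without replicate 2 at 12.5% or without replicate 3 at 25%. The annotation places antisense genes on the opposite strand of IGF1R, and their reads cannot be told apart here.

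RHOU (chromosome 1, 228735077 to 228746669), a small GTPase, fell at 12.5% and at 0% on day 6. Its normalized counts were 73.7, 64.3 and 68.8 at 100%, 81.9, 62.5 and 69.9 at 50% and 96.2 and 105 at 25%. At 12.5% they were 44.7, 31.5 and 48.7 and at 0% 27.4, 27.4 and 23.0. The order 25%, 50%, 100%, 12.5% and 0% left no overlap between full medium and 25%, 12.5% or 0%. RHOU fell at 0% (log2 change -1.38 ± 0.23 SE, adjusted p = 5.69e-05) and at 12.5% (log2 change -0.74 ± 0.23 SE, adjusted p = 0.0198). The 12.5% call ended without replicate 2 at 12.5% (adjusted p = 0.121), without replicate 1 of full medium (0.0663), in a fit of those 2 groups (0.0595) and without the keratin-high libraries (0.197). The higher values at 25% were not called against 100% (log2 change 0.54 ± 0.26 SE, adjusted p = 0.189), while 12.5% was lower than 25% (log2 change -1.27 ± 0.26 SE, adjusted p = 0.00152). On day 9 RHOU had 69.9, 46.6 and 62.9 at 100%, 89.2 and 92.0 at 50%, 66.3, 56.8 and 84.5 at 25% and 59.0, 43.4 and 34.4 at 12.5%. Both 50% libraries exceeded every full-medium library without passing the test (log2 change 0.61 ± 0.26 SE, adjusted p = 0.996), and 12.5% overlapped with full medium (adjusted p = 0.245).

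Between 0% and 12.5% on day 6, 4 of the 8 genes were lower (NOTCH3, DTX1, CR2 and IGF1R) and HES1 was higher, where 15.3% of all genes were called, 7% higher and 8.26% lower. RHOU was lower in every library without being called (log2 change -0.64, adjusted p = 0.062). That difference was called with a minimum of 50 (adjusted p = 0.0479) and without replicate 2 at 12.5% (log2 change -0.83, adjusted p = 0.0356). The plot of pairs shows both kinds of order. The no-histidine libraries and replicate 2 of full medium on day 9 held the 4 lowest values of NOTCH3 and of CR2 among the 25. For HES1 and IGF1R the 12.5% libraries stood apart instead: 5 of the 6 were the lowest 5 for HES1, the exception being replicate 3 of day 9.

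**Figure D3:**
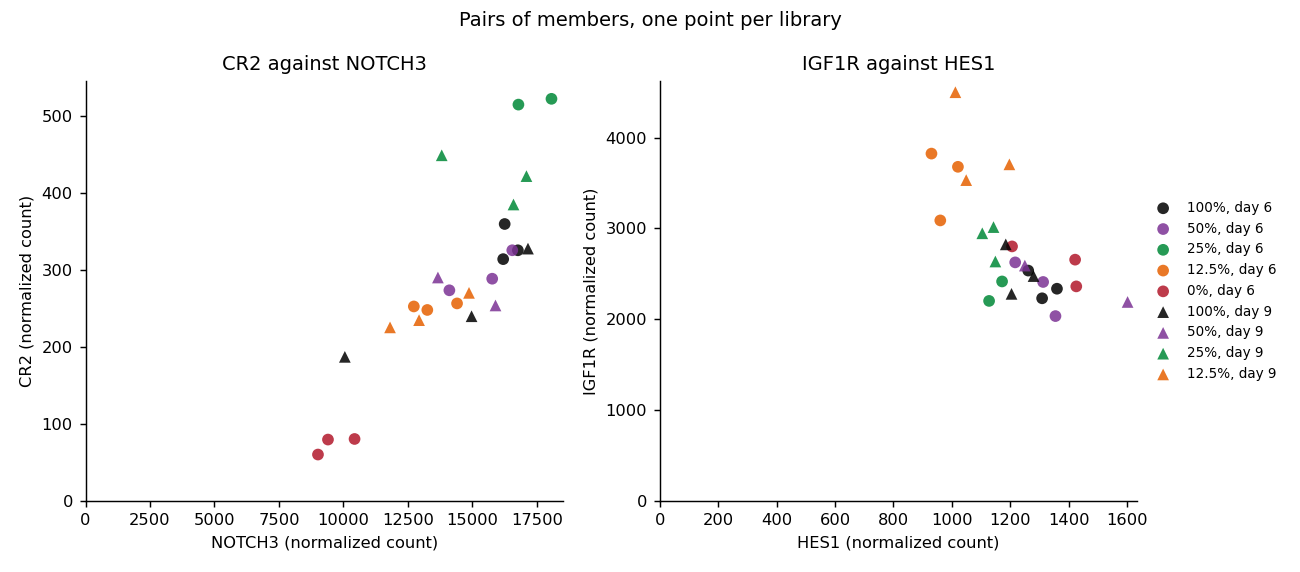
CR2 against NOTCH3 and IGF1R against HES1 as normalized counts on linear axes, with 1 point per library, colour for histidine level and shape for day. The 0% libraries have NOTCH3 between 9015 and 10434 and CR2 between 60.2 and 80.4, and the 12.5% libraries have IGF1R between 3088 and 4499.

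Time alone moved none of the 8 genes past the threshold. Between day 9 and day 6 in full medium 2.17% of all genes were called, 206 higher and 202 lower (137 and 294 with upper-quartile scaling). CR2 had 252 ± 71.1 on day 9 against 333 ± 23.8 on day 6 (n = 3 each, log2 change -0.44, adjusted p = 0.146), and without replicate 1 of day 9 the change was -0.65 (adjusted p = 0.0227), while without replicate 2 it was -0.25 (adjusted p = 0.589). Whether the dose effect differed between days was tested at 12.5%, 25% and 50%, where 0.0638%, 0.00532% and 0% of genes were called and none of the 8. The lowest adjusted p among them was 0.473, for DTX1 at 12.5%, with a difference of 0.33 (95% interval 0.01 to 0.64). HES1 and RHOU at 12.5% were called on day 6 only, and these tests did not show that the days differ.

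Other genes of the pathway were followed in 5 lists with 60 genes, of which 56 were in the table and 51 passed the filter. The lists held the other receptors and ligands, the enzymes of cleavage and glycosylation, the nuclear complex with its corepressors, trafficking and turnover, and other targets. Without histidine on day 6, 3 of the 51 rose and 17 fell, where 13.3% and 16.5% of all genes did (median log2 change -0.17, beside 0.03 over all genes). At 12.5% the counts were 6 and 14 on day 6, beside 11.7% and 15.3% of all genes, and 6 and 11 on day 9, beside 9.35% and 11.5%. At 25% they were 4 and 5 on day 6, beside 6.79% and 6.92%, and 8 and 6 on day 9, beside 9.4% and 8.76%. At 50% none was called on either day. Between day 9 and day 6 in full medium 1 of the 51 rose and 3 fell, where 2.17% of all genes were called. MAML1 was higher (log2 change 0.32) and MAML3 (-0.44), MYC (-0.51) and CCND3 (-0.40) were lower. These calls ended in 12, 9, 1 and 9 of 16 alternative runs, in that order. The counts of each list stand beside these same shares.

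Of the 16 genes of the nuclear complex, 1 rose and 6 fell without histidine, beside 13.3% and 16.5% of all genes. TLE2, a Groucho-type corepressor, fell from 518 ± 28.3 to 207 ± 5.44 (log2 change -1.32, adjusted p = 9.18e-07, n = 3 each), and the Mastermind coactivator MAML2 fell from 335 ± 8.25 to 167 ± 27.2 (log2 change -1.01, adjusted p = 6.99e-06). SNW1, a transcriptional coregulator that binds this complex, fell too (log2 change -0.48, adjusted p = 0.000417). In the 12.5% comparison of day 6, 5 rose and 3 fell. RBPJ, the DNA-binding partner of the receptors, rose from 785 ± 52.9 to 1132 ± 21.4 (log2 change 0.53, adjusted p = 0.000144), and the corepressor SPEN rose (log2 change 0.78, adjusted p = 0.000571) while TLE2 fell (log2 change -0.58, adjusted p = 0.00909). At 25% on day 6, 2 rose and 1 fell, with RBPJ (log2 change 0.61, adjusted p = 0.000244) and MAML2 (log2 change 0.77, adjusted p = 0.00175) higher and TLE3 lower (log2 change -0.42, adjusted p = 0.00283). RBPJ was also called higher on day 9, at 12.5% (0.29, adjusted p = 0.0262) and 25% (0.37, adjusted p = 0.0052), but not at 0% on day 6. TLE3 was also called lower at 0% (log2 change -0.46) and 12.5% (-0.44) on day 6. It was called lower on day 9 too, at 12.5% (-0.39) and 25% (-0.24, adjusted p = 0.0471). On day 9, 7 rose and 2 fell at 25%, among the former MAML2 (log2 change 0.92, adjusted p = 6.54e-05) and MAML3 (log2 change 0.55, adjusted p = 0.00134). At 12.5% on day 9, 4 rose and 3 fell, with MAML3 again higher (log2 change 0.72, adjusted p = 9.28e-05). In full medium MAML3 was itself lower on day 9 than on day 6 (271 ± 36.4 against 367 ± 25.1, log2 change -0.44, adjusted p = 0.0447). That day call ended in 9 of 16 alternative runs. At 12.5% its mean was 466 on day 6, also called higher than full medium (0.34, adjusted p = 0.0299), and 444 on day 9. MAML2 was thus higher than full medium at 25% on both days and lower at 0% on day 6, and 0% was lower than 12.5% for it (log2 change -1.30, adjusted p = 6.82e-07). The calls of TLE2 at 12.5% and of MAML2 and TLE3 at 25% on day 6 ended without the keratin-high libraries, those of MAML2 also without replicate 2 and of TLE3 without replicate 3 of the 25% group.

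**Figure D4:**
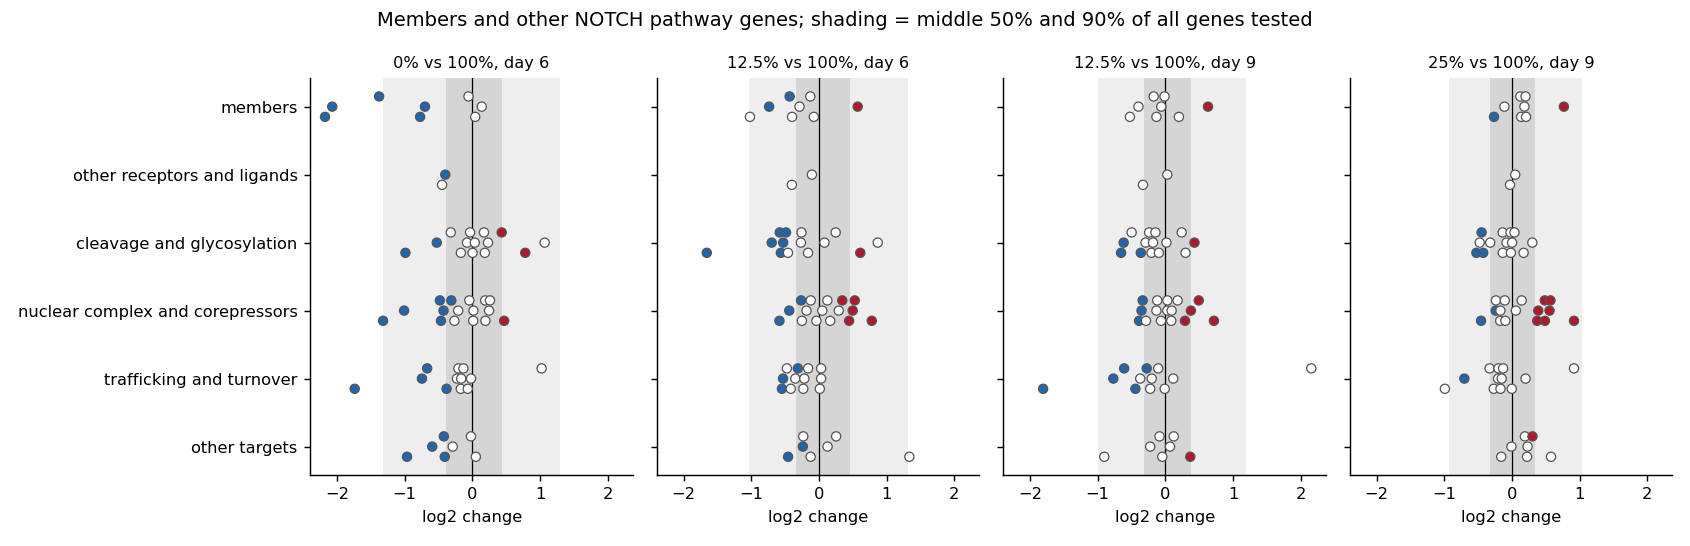
Log2 change of the 8 genes (top row) and of the tested genes of the 5 lists (other rows), 1 point per gene, in 4 comparisons (panels), with shading for the middle 50% and 90% of all genes tested. In the panel without histidine CR2 and HES4 lie at -2.18 and -2.07, and TLE2 lies at -1.32.

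Of the 14 genes of cleavage and glycosylation, 2 rose and 2 fell without histidine, near the 13.3% and 16.5% of all genes. The gamma-secretase subunit APH1B fell from 401 ± 12.9 to 203 ± 31.6 (log2 change -0.99, adjusted p = 1.34e-05) and POGLUT1, which adds glucose to the receptors, rose from 262 ± 41.9 to 447 ± 21.9 (log2 change 0.78, adjusted p = 1.41e-05). RFNG, a Fringe glycosyltransferase, fell (log2 change -0.53, adjusted p = 0.0172), a call that ended in a fit of those 2 groups, without the keratin-high libraries, without replicate 3 of full medium and without replicate 1 at 0%. The 12.5% comparison of day 6 had 1 gene higher and 6 lower, with POGLUT1 higher (log2 change 0.61, adjusted p = 0.000392) and APH1A, another gamma-secretase subunit, lower (log2 change -0.70, adjusted p = 0.00137). On day 9, 1 rose and 3 fell at 12.5%, with POFUT1, which adds fucose to the receptors, lower (log2 change -0.62, adjusted p = 0.000231) and APH1B lower (log2 change -0.66, adjusted p = 0.00229). At 25%, 1 rose and 1 fell on day 6 and 0 rose and 3 fell on day 9, POFUT1 among the last (log2 change -0.53, adjusted p = 0.0012).

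Of the 12 genes of trafficking and turnover none rose in any comparison with full medium, where 0% to 13.3% of all genes did, so that a count of 0 lies near the background. Without histidine 4 fell, with the kinase CDK8, which marks the intracellular domain for turnover, going from 570.4 ± 66.9 to 339 ± 31.8 (log2 change -0.75, adjusted p = 0.000388) and the ubiquitin ligase MIB1 lower (log2 change -0.38, adjusted p = 0.00257), a call of MIB1 that ended without the keratin-high libraries. CDK8 also fell at 12.5% on day 6 (log2 change -0.55, adjusted p = 0.00764) and on day 9 (log2 change -0.77, adjusted p = 0.000543), where 3 and 5 of the list fell. Of 7 other targets 4 fell without histidine: SKP2, a subunit of a ubiquitin ligase, went from 1175 ± 53.0 to 603 ± 66.0 (log2 change -0.97, adjusted p = 1.57e-05), and the interleukin 7 receptor IL7R from 7315 ± 96.1 to 5465 ± 317 (log2 change -0.42, adjusted p = 0.000107). LZTFL1 (log2 change -0.59, adjusted p = 0.00291) and CCND3 were the others. IL7R rose at 25% on day 6 (log2 change 0.40, adjusted p = 0.00174) and on day 9 (log2 change 0.30, adjusted p = 0.0052), calls that ended without the keratin-high libraries, and MYC fell at 25% on day 6 (log2 change -0.53, adjusted p = 0.000201). Of the other receptors and ligands NOTCH2 and DLL1 were tested, and NOTCH2 fell without histidine (log2 change -0.40, adjusted p = 0.0266). That call ended with upper-quartile scaling, with quantile normalization, without the keratin-high libraries, without replicate 1 or 3 of full medium and without replicate 3 at 0%, and NOTCH2 shares sequence with near-identical NOTCH2NL copies, so its level is uncertain.

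For each of the 8 genes the 2 most similar among 10746 other named genes with a mean of at least 50 were found by Pearson's r of log2 values over the 25 libraries, which share 9 groups and a common scaling. CR2 had the closest, E2F2 (r = 0.973) and FOXM1 (0.972). NOTCH3 was followed by RIMS3 (0.920) and the corepressor TLE2 (0.904), and RHOU by RIMS3 (0.908) and DTNB (0.906). The nearest to DTX1 were ZNF395 and MAST2 (both 0.892), to HES1 GMDS (0.880) and MZB1 (0.877), and to IGF1R PPM1L (0.868) and VCPIP1 (0.863). The values were lower for NOTCH1, with BRPF1 (0.847) and SUPT6H (0.809), and for HES4, with YEATS4 (0.826) and CAMK2N2 (0.824).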

How the data were processed

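Total RNA of DND-41 cells was turned into stranded libraries, per the labels' protocols. The authors deposited 1 table of normalized counts (a signal, not whole reads), and kallisto 0.50.1, DESeq2 1.44.0, FastQC 0.11.9 and GRCh38 are named in the submitters' processing notes. Which annotation and strand setting they used is not given in the sources. Whole reads were not recovered: with the best step per library, 37.8% to 76.1% of the values below 20 were within 0.05 of a multiple. Depth is therefore known only as totals of normalized counts.

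Groups follow the titles. Genes with at least 10 in at least 2 libraries were fitted with limma 3.58.1 in R 4.3.3 on log2(value + 1), with a mean-variance trend, 9 group means and 16 residual degrees of freedom, tested two-sided and adjusted over 18799 genes. The procedure was run on simulated data with independent noise. Changes were placed only in genes with a higher mean than HES4, so it did not cover genes that low. Alternatives were a pseudocount of 8, other filters, upper-quartile and quantile scaling, library weights, a replicate block, the compared groups only, keratin terms and leaving out each library. The 50% day by dose test and tests of neighbouring levels were added after the data were seen. Coordinates are GENCODE 29 on GRCh38, matched by symbol, and may not be the authors' annotation. Figures used matplotlib 3.10.9 in Python 3.11.15.

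The genes and lists were chosen with earlier results of these data known. From each list, up to 3 genes per comparison that were called, by size of change, could be named if the higher group's mean reached 50, and CCND3 and DLL1 were added to complete a count. RBPJ, TLE3 and MAML3 were also given in comparisons where this rule did not name them, and their alternative runs were not examined there.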

Additional observations from a re-analysis of the deposited data

How the results depend on the processing

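Of 128 values of the 8 genes over the comparisons, 25 were called. Their 392 values under the alternatives included 349 called the same way, 43 not called and none reversed, and 11 of 1728 values not called at first became called. The number of the 8 called at 25% on day 9 went from 2 to 1 with no filter, with quantile normalization and with the keratin covariate. Without the keratin-high libraries it went to 0, as it did at 25% on day 6 (from 1), and at 12.5% on day 6 it went from 3 to 1, while library weights gave 5. Leaving out each library gave 2 to 4 at 12.5% on day 6, 0 to 1 at 25% on day 6, 1 to 2 at 25% on day 9, 3 to 5 for 0% against 12.5%, 0 to 1 for day at 100%, 5 throughout at 0% and 1 throughout at 12.5% on day 9. In groups of 2 this leaves a lone library, assumed to vary like the other groups.

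Without the keratin-high libraries the counts over all genes went from 5611 to 3239 at 0%, 5072 to 2464 at 12.5% and 2577 to 914 at 25% on day 6, 3415 to 1216 at 25% on day 9 and 408 to 21 for day at 100%. Library weights gave 292 genes at 50% on day 6 (0 at first), 4967 for 0% against 12.5% (2869), 1069 for day (408) and 133 and 8 for the day by dose difference at 12.5% and 25% (12 and 1). The compared groups alone gave 1184 for 0% against 12.5%, 135 for day and 1 at 50% on day 6, and no filter gave 266 for day. Leaving out each library gave 1261 to 2069 at 25% on day 6, 1750 to 3309 for 0% against 12.5%, 151 to 332 for day, 2 to 19 and 0 to 5 for the day by dose difference at 12.5% and 25%, and 0 to 11 at 50% on day 9. The other counts that moved by over 1.5 times started from at most 12 genes and went to values between 0 and 3. The cause of these shifts was not tested, beyond fewer libraries where some were left out.

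With the replicate number as a block none of the counts of the 8 genes called changed. The count at 50% on day 9 went from 1 gene to 0. Deviations from the group means, over all genes tested, had correlations of -0.13 to 0.08 (median 0.00363) in 92 same-number pairs of different groups. The median was -0.00118 in 185 other pairs. With groups this small, these medians do not settle whether libraries of the same number belong together. HES4 and PTCRA are limited by their low counts.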

Other observations

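In full medium on day 9, replicate 2 was the lowest library of its group for 7 of the 8 genes. It held 10058 normalized counts of NOTCH3 against 17160 and 14972 in the other two, 187 of CR2 against 328 and 240.0, and 11.8 of HES4 against 31.8 and 24.6.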
